A study of Homo sapiens with 47 samples.

Results

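The 10 genes described here are the bone morphogenetic protein (BMP) ligands BMP7, BMP4 and BMP2, the receptors BMPR1A and BMPR2, and 5 direct targets of the pathway, ID1, ID2, ID3, SMAD6 and SMAD7. They were taken by gene symbol from a table of 57507 genes, and each symbol had a single row. BMP7 was chosen by its FPKM values, which were higher than wild type in all mutant clones and in the vector control line. Its differences from wild type are therefore given as a description and carry no test. The other members were chosen for their place in the pathway.

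BMPs are secreted ligands of the TGF-beta superfamily. They bind pairs of type I receptors such as BMPR1A and type II receptors such as BMPR2, which phosphorylate SMAD1, SMAD5 and SMAD9, and these enter the nucleus with SMAD4. There they raise the transcription of the ID genes, which encode inhibitors of basic helix-loop-helix transcription factors, and of SMAD6 and SMAD7, which act back on the receptors as inhibitors.

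RNA sequencing covered 47 libraries of 2 human cell lines. HAP1 is a near-haploid line from a chronic myeloid leukemia and HCT116 a near-diploid colorectal carcinoma line. The HAP1 libraries were 4 each of wild-type cells (WT), of cells given Cas9 without guide RNA (EV) and of 6 clones with a mutated NUP58 (C1 to C6), a gene for a nucleoporin of the central channel of the nuclear pore. The HCT116 libraries were 4 of a clone with a mutated NUP58 and 11 unedited controls: 2 wild type, 3 of the Cas9 control line EV1, 4 of the Cas9 control line EV2, and 2 whose title and genotype conflict, one titled as EV1 but with a wild-type genotype and one titled as wild type but with a genotype of Cas9 without guide. Each mutant line grew from a single edited cell, so the mutation and whatever else set that cell apart cannot be told apart within a line. The study calls the replicates biological, but a legend on RNA levels in HCT116 calls them technical. The labels do not say whether they were separate cultures, and p-values measure the spread between these libraries only. The values are FPKM, fragments per length of transcript and depth of library, so that levels of different genes can be placed side by side.

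A HAP1 library held between 604053 and 654081 FPKM in all and an HCT116 library between 619798 and 721992, with 18020 to 19456 genes above 0. The number of fragments behind a value is unknown. Relative depth, read from the lowest values as a ratio to HAP1 WT replicate 1, was 0.75 to 1.16 for HAP1 and 0.76 to 0.978 for HCT116. In bulk RNA, fewer cells that express a gene and less RNA per cell cannot be told apart. NUP58 was between 34.3 and 50.4 FPKM in the HAP1 WT and EV libraries and between 7.98 and 28 in the 24 clone libraries. In HCT116 it was 25.3, 23.3 and 24.3 FPKM in clone replicates 1, 2 and 4, but 44.7 in the library labelled clone replicate 3, against 23.9 to 50.3 in the controls, whose lowest value was that of the library labelled EV2 replicate 3. The labels of the HCT116 libraries numbered 3 and 4 are therefore in doubt: they may have been exchanged, which was not tested. All HCT116 comparisons below take them as given, and those against HAP1 as well. Epithelial markers marked HCT116 (EPCAM 102 to 272 FPKM against 0.181 to 16.7 in HAP1), although the intestinal genes CDX1, VIL1 and LGALS4 stayed under 0.3 in HCT116. The blood genes PTPRC, SPI1 and GATA1 were at 0 in all HAP1 libraries. The summed level of 10 blood markers was 3.05 to 3.91 FPKM in EV and 14.5 to 25.8 in the other HAP1 lines, and the marker that differed most was TAL1 (mean 1.26 FPKM in EV and 18.1 in WT). The part of this difference in the values of EV below was not tested.

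Promoter sequences are shown for ID1 and ID3, whose levels moved together from library to library, for SMAD7, the target whose level rose in the clones, and for SMAD6, its fellow inhibitor. Each covers 250 bases before to 50 bases after a transcription start (RefSeq, GRCh38.p14, 5′ to 3′ on the strand of the gene), and capitals mark GTCT and its reverse complement AGAC, the core bound by SMAD proteins. The windows lie at chr20:31605039-31605338 on the plus strand (ID1), chr1:23559452-23559751 on the minus strand (ID3), chr15:66701986-66702285 on the plus strand (SMAD6) and chr18:48950916-48951215 on the minus strand (SMAD7, the most upstream of 3 starts).
ID1: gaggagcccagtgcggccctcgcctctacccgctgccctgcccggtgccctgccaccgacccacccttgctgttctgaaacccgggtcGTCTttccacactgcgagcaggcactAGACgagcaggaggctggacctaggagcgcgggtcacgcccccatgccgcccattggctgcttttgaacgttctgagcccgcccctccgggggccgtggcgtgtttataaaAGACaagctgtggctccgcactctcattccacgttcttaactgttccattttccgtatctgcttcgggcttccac
ID3: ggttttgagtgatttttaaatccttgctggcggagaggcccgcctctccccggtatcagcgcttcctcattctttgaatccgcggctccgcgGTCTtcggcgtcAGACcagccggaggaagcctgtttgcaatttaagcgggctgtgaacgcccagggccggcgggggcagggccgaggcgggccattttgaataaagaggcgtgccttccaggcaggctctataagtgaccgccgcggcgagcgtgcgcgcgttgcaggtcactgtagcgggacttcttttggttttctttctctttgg
SMAD6: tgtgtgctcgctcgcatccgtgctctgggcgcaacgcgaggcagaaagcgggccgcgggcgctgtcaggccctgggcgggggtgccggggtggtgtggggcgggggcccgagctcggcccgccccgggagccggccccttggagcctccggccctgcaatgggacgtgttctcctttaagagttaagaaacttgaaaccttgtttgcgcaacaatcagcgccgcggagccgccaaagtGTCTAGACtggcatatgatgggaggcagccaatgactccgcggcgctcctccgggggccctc
SMAD7: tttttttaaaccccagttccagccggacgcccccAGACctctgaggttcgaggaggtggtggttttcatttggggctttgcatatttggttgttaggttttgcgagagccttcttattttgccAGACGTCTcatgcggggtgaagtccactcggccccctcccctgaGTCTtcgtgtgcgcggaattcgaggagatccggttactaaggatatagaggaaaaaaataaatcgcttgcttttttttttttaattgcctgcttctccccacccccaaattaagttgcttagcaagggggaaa
GTCT or AGAC stood 3 times in the window of ID1, 2 times in that of ID3, 2 times in that of SMAD6 and 4 times in that of SMAD7, and at least once in 84% of the 35116 promoters of the table, so that its presence sets none of them apart. The eight-base palindrome GTCTAGAC, which is one GTCT run into one AGAC, stood once in the SMAD6 window, with its first base 12 bases before the start, and in 0.202% of all promoters. No window of a member held GGCGCC followed by 5 bases of any kind and GTCT (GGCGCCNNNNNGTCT on either strand, 0.103% of all promoters), the composite BMP response element. GGCGCC alone stood in the window of BMPR2 and in 1 of 3 windows of BMP4 (19.2% of all promoters). In all, 8 of the 10 members had a promoter in the table, and BMP7 and BMP2 had none. TATAAA on either strand was found in 3 of the 12 windows of members and in 11.5% of all promoters. The 3 were those of ID1, of BMPR1A and 1 of SMAD7 that is not shown, and that of ID3 held none. These matches describe the letters of 300 bases and no binding, and sequence farther from the start was not searched.

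Among the ligands, BMP7 was the least abundant of the 10 members in WT. BMP7 (ENSG00000101144.12, chromosome 20, 57168753 to 57266641, minus strand) encodes a BMP that is needed for kidney and eye development. Its 4 WT libraries stood at 1.88, 2.14, 1.28 and 0.922 FPKM. EV stood at 13.5, 13.5, 8.15 and 9.55 FPKM, C1 at 22, 20, 16.4 and 16.8, and C2 at 26.3, 20.1, 17.8 and 25.4. C3, the lowest clone, stood at 5.56, 5.04, 3.52 and 5.71 FPKM, C4 at 19.9, 23.2, 11.4 and 17, C5 at 10.5, 13, 9.48 and 11.9, and C6 at 16.1, 19.3, 16.9 and 15.8. No clone or EV library overlapped with WT, which is the pattern that chose the gene. Of 13180 genes tested, 0.296% were higher without overlap in all clone libraries than in all WT libraries, and of 13153 tested in EV, 0.973% were. The mean of 11.2 FPKM in EV was 7.18 times that of WT (1.55 ± 0.555, SD, n = 4), a size between that of C3 (3.19 times) and C2 (14.4 times). On the scale of log2(FPKM + 1), the difference from WT was 2.57 (SE 0.15) for the mean of the 6 clones and 2.25 (SE 0.21) for EV.

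**Figure D1:**
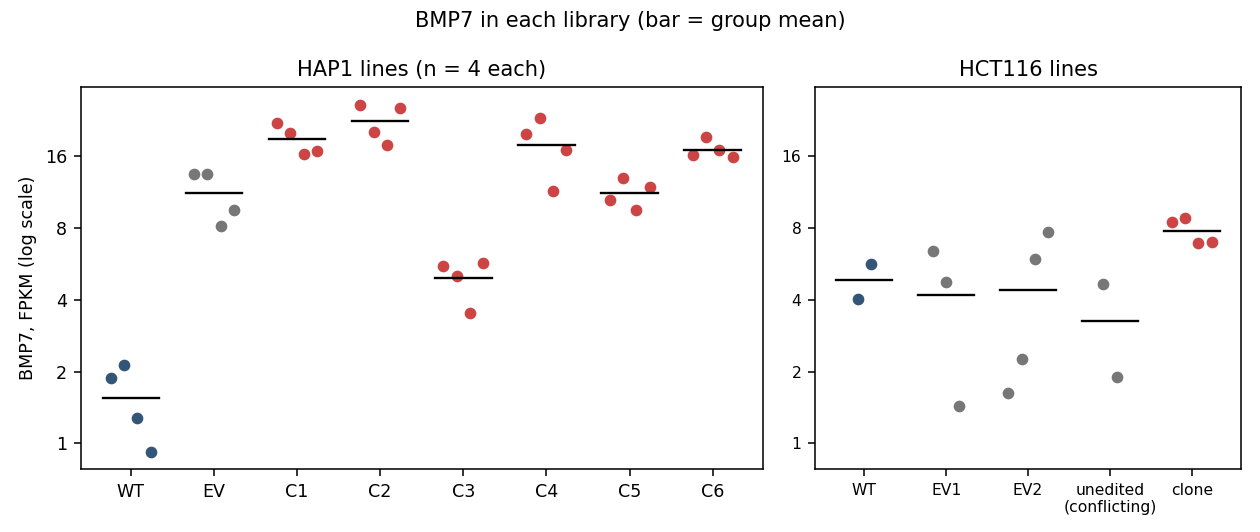
BMP7 in FPKM (log axis) in each library of 8 HAP1 lines (left, 4 libraries a line) and of the HCT116 groups (right, 2 to 4 libraries); a point is a library and a bar the group mean. WT libraries lie at 0.922 to 2.14 FPKM, below all other HAP1 libraries, EV at 8.15 to 13.5 lies among the clones, and C3 lies between WT and the other clones.

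The level of BMP7 also differed from clone to clone, a comparison that the choice of the gene did not use. The order of the means was C2 (22.4 FPKM), C1 (18.8), C4 (17.9), C6 (17), C5 and EV (both 11.2), C3 (4.96) and WT (1.55). The ranges of neighbours in this order overlapped from C2 to C6 and again for C5 and EV, and did not overlap between C6 and C5, between EV and C3, and between C3 and WT. The largest distance between 2 clones was 1.97 on the log2(FPKM + 1) scale, and limma's F test among the 6 clones gave an adjusted p of 4.29e-08, where 15.8% of all genes tested were called (adjusted p under 0.05). The summed level of 10 epithelial markers, of which 3 to 5 had a mean of at least 1 FPKM in a line and CDX1 was at 0 throughout, was 22 to 37.5 FPKM in the libraries of C1, C2, C4 and C6, the clones with the most BMP7, and 37.2 to 66 in those of WT, EV, C3 and C5. Most of this sum in WT came from KRT18 and KRT8, with means of 37.5 and 10 FPKM. The ranges of these groups of lines overlapped, and the part of these markers in the order of BMP7 was not tested. The mean of the clones was 0.32 (SE 0.15) above EV in BMP7, with an adjusted p of 0.189 by limma, and between 0.19 (without EV replicate 3) and 0.41 (without EV replicate 1). Taken singly, C1, C2 and C6 were above EV and C3 below it without overlap, at the smallest p that an exact permutation test of 4 against 4 libraries can give (two-sided p = 0.0286). Adjusted over the 60 tests of 10 members in 6 clones, this is 0.0857. The share of all genes without overlap was not computed for single clones.

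BMP2 went the other way in EV. BMP2 (ENSG00000125845.6, chromosome 20, 6767686 to 6780246) encodes a ligand close to BMP4 with a known part in bone formation. It stood at 1.9, 4.66, 2.08 and 1.14 FPKM in WT and at 0.275, 0.171, 0.476 and 0.175 in EV, and the 2 groups did not overlap. Of the genes tested, 0.928% were lower in EV than in WT without overlap. The difference was -1.35 (SE 0.29) on the log2(FPKM + 1) scale with an adjusted p of 0.595 by limma, in a comparison where 0.038% of genes were called (5 of 13153, with 274 at an unadjusted p under 0.05). None of the 9 members other than BMP7 was called in it.

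Among the clones, BMP2 was highest in C6, at 10.4, 10, 8.38 and 15 FPKM, with no overlap with any other line. C5 followed at 2.96, 6.68, 3.55 and 3.2 FPKM, and C1 to C4 ranged from 0.249 to 4.06 over 16 libraries and overlapped with WT. C6 differed from WT by 1.86 (SE 0.29, adjusted p = 0.00294 by limma). The range among the clones was 2.68 on the log2 scale, with an adjusted p of 2.22e-06 by limma's F test. The mean of the clones was 0.07 (SE 0.25) from WT, with an adjusted p of 0.917. It was 1.42 (SE 0.25) above EV, with an adjusted p of 0.000454 by limma. In 5 of 6 clones every library was above every EV library, C2 being the exception (0.249 to 1.54 FPKM against 0.171 to 0.476). All EV values were thus under 1 FPKM. The share of all genes without overlap was computed neither for single clones against EV nor for C6 against the other lines. The ligand that was high in EV and the one that was low in EV thus had different orders over the clones: C3 was the clone with the least BMP7, C2 the clone with the most BMP7 and the least BMP2.

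BMP4 (ENSG00000125378.15, chromosome 14, 53949736 to 53958761), a ligand of early mesoderm, stood at 4.8 to 7.12 FPKM in WT and 3.96 to 5.3 in EV. It ranged from 2.6 to 9.74 over the 24 clone libraries. All 8 lines overlapped with their neighbours in the order of means, and its difference between the clones and WT was -0.09 (SE 0.18, adjusted p = 0.834 by limma).

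Genes around BMP7 were looked at by position, and RAE1 and AURKA are named after their values were seen. Within 1 Mb on either side, 9 other genes were tested, and in EV against WT their log2 differences lay between -0.33 and 0.17, with none called. RAE1, which encodes an mRNA export factor and lies 85 kb from BMP7, differed by 0.04 in EV and by -0.11 in the mean of the clones. In the mean of the clones against WT, the 9 genes lay between -0.57 and 0.22. The only one called was AURKA, a mitotic kinase gene, which was lower (adjusted p = 0.00471 by limma). None of the 9 rose by an amount near that of BMP7. Over the 32 HAP1 libraries, the genes whose log2 values followed BMP7 most closely, of 13179, were QKI, an RNA-binding protein gene (Pearson's r 0.769), the kidney transcription factor gene PAX2 (0.747), the integrin gene ITGB8 (0.741), ST18 (0.739) and SFRP1, a gene for a secreted WNT antagonist (0.733). The libraries of a line share these values, so the r is a description over 8 lines at most. PAX2 was lowest in WT (mean 5.72 FPKM), next in C3 (6.53) and 9.71 in EV, whereas QKI was 74.2 in WT, 85.7 in EV and 97.3 to 131 in the clones.

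Of the 2 receptors, BMPR2 was higher in the clones than in EV. BMPR2 (ENSG00000204217.12, chromosome 2, 202376327 to 202567751) is the type II receptor whose germline mutations are known from pulmonary arterial hypertension. It stood at 5.97, 6.65, 5.43 and 5.07 FPKM in WT and at 5.4, 5.32, 4.68 and 5.22 in EV. Over the 24 clone libraries it ranged from 5.3 to 11.3 with a median of 7.74, so that the lowest clone libraries, those numbered 3 in C3 (5.3) and C4 (5.38), lay within the range of EV. The mean of the clones was 0.50 (SE 0.13) above EV, with an adjusted p of 0.0164 by limma. It was 0.36 (SE 0.13) above WT, with an adjusted p of 0.104. Without EV replicate 3 or EV replicate 4 the adjusted p against EV was 0.0705 and 0.0563. C6, with 7.9, 7.7, 8.57 and 11.1 FPKM, was 0.53 (SE 0.15) above WT at an adjusted p of 0.049, which rose to between 0.0813 and 0.134 without any one of the 4 C6 libraries or without WT replicate 1, 3 or 4. Line means of BMPR2 lay between 7.36 and 8.82 FPKM in the 6 clones, and limma's F test among them gave an adjusted p of 0.929.

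BMPR1A (ENSG00000107779.12, chromosome 10, 86756596 to 86932825), the type I receptor for BMP2 and BMP4, stood at 10.5 to 18.1 FPKM in WT, 13.8 to 16.5 in EV and 9.81 to 19.6 in the clones. The mean of the clones differed from WT by 0.00 (SE 0.11, adjusted p = 0.99 by limma) and from EV by -0.08 (SE 0.11, adjusted p = 0.727).

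**Figure D2:**
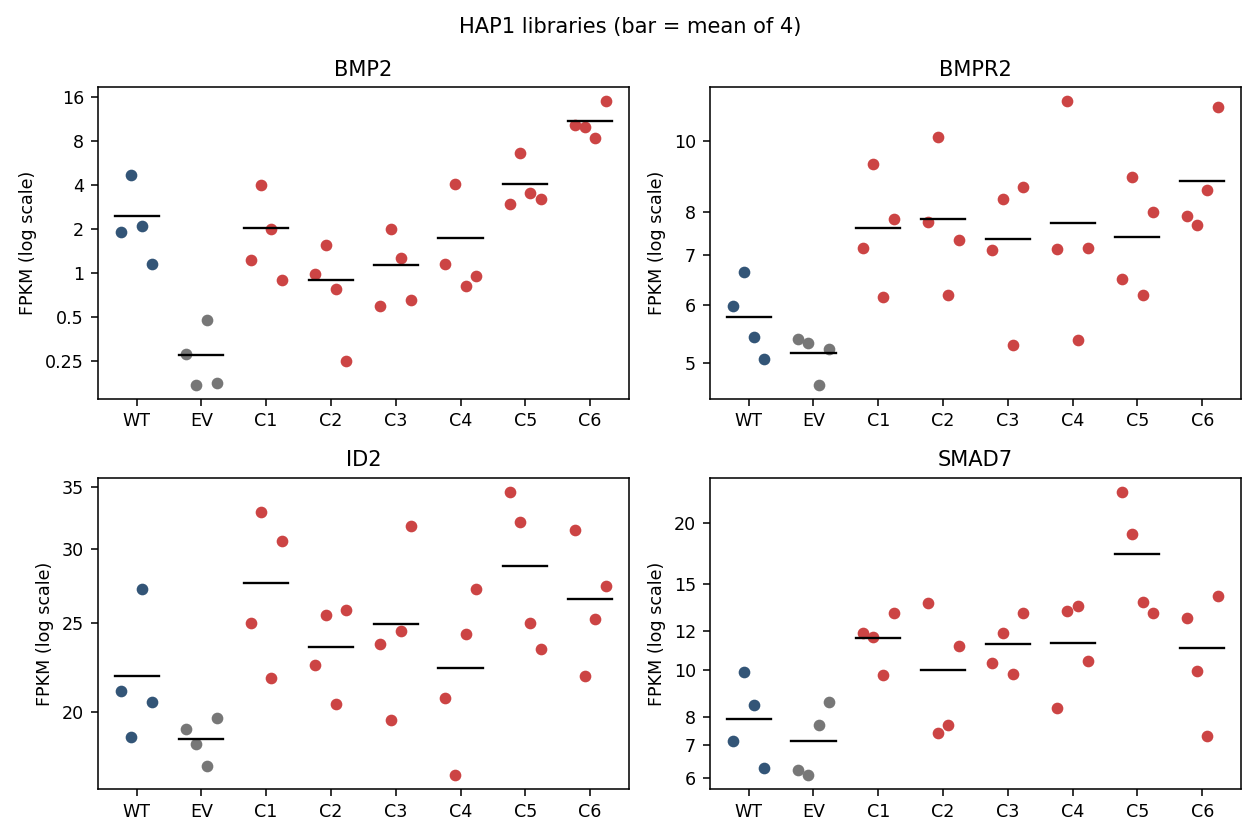
FPKM (log axes) of BMP2, BMPR2, ID2 and SMAD7 in each HAP1 library, with a bar at the mean of 4; these are the members called in the clones against EV. BMP2 is lowest in EV (0.171 to 0.476) and highest in C6 (8.38 to 15), and the clone libraries of the other genes lie mostly above EV with overlap in single libraries.

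Among the targets, SMAD7 was the one that rose in the clones against both controls. SMAD7 (ENSG00000101665.8, chromosome 18, 48919853 to 48950965, minus strand) is the inhibitory SMAD of both the TGF-beta and the BMP branch. It stood at 7.12, 9.87, 8.45 and 6.29 FPKM in WT and at 6.23, 6.07, 7.69 and 8.6 in EV. It was highest in C5, at 23.2, 19, 13.8 and 13.1 FPKM, above every WT and EV library. The other clones ranged from 7.3 to 14.2, and C1, C3 and C5 had no library within the range of EV. For single clones the share of all genes without overlap was not computed. The mean of the clones was 0.52 (SE 0.15) above WT with an adjusted p of 0.0371, and 0.65 (SE 0.15) above EV with an adjusted p of 0.00718, both by limma. The 2 comparisons share the 24 clone libraries. C5 alone was 1.01 (SE 0.20) above WT (adjusted p = 0.0149), and 0.0503 without WT replicate 4. The difference of the clones from WT was not called without WT replicate 1 (adjusted p = 0.137), 3 (0.0719) or 4 (0.189). Among the clones the range was 0.74, with an adjusted p of 0.106 by limma's F test, and 0.0457 without C2 replicate 1.

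Thus, of the 9 members other than BMP7, 1 was called in the mean of the clones against WT, upwards, where 3.17% of all genes were called upwards. Of all 10 members, 4 were called against EV, all upwards (BMP2, BMPR2, ID2 and SMAD7), where 4.18% of all genes were. The median log2 difference of the 9 members other than BMP7 was 0.07 against WT and 0.29 against EV, and that of all genes -0.02 in both. In the single clones, 3 of the 54 pairs of a clone and another member were called, all upwards: SMAD7 in C5, and BMP2 and BMPR2 in C6. Of all genes, 6.28% were called upwards for C6 and 3.28% for C5, and the called pairs fell in these 2 clones. The other shares were 0.343% (C2), 0.289% (C1), 0.0914% (C4) and 0.0379% (C3).

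ID2 rose in the clones against EV. ID2 (ENSG00000115738.9, chromosome 2, 8678845 to 8684461) encodes an inhibitor of differentiation factors. It stood at 19.2, 18.5, 17.5 and 19.7 FPKM in EV, the narrowest spread of any line, and at 21.1, 18.8, 27.2 and 20.5 in WT. The clones ranged from 17.1 to 34.6 with a median of 25. Their mean was 0.41 (SE 0.12) above EV, with an adjusted p of 0.0303 by limma, and this call was lost without any one of the 4 EV libraries (adjusted p 0.0708 to 0.106). Against WT the difference was 0.21 (SE 0.12, adjusted p = 0.344).

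ID1 and ID3 did not pass the test in any comparison of HAP1 lines. ID3 (ENSG00000117318.8, chromosome 1, 23557926 to 23559501) was the most abundant member, at 125 to 203 FPKM in WT, 127 to 191 in EV and 65.6 to 205 in the clones. ID1 (ENSG00000125968.8, chromosome 20, 31605283 to 31606515) stood at 27.8 to 61.4 FPKM in WT, 28.1 to 41.6 in EV and 17.4 to 61 in the clones. The mean of the clones differed from WT by -0.28 (SE 0.21, adjusted p = 0.516 by limma) for ID1 and by -0.10 (SE 0.20, adjusted p = 0.843) for ID3. That of ID1 was -0.46 when WT replicate 1, the lowest WT library, was left out and -0.09 when WT replicate 3, the highest, was. EV, with 7.18 times the BMP7 of WT, differed from WT by -0.28 (SE 0.22) for ID1 and by -0.00 (SE 0.18) for ID3, with adjusted p of 1 for both by limma, and ID1 again ranged from -0.46 to -0.09 without these WT libraries. The spread within a line was wider than these differences: the SD of the 4 WT libraries was 14.4 FPKM for ID1 at a mean of 42.7. SMAD6 (ENSG00000137834.14, chromosome 15, 66702236 to 66782849), the inhibitor specific to the BMP branch, stood at 2.83 to 4.83 FPKM in WT and at 1.3 to 6.71 in the clones (difference 0.17, SE 0.20, adjusted p = 0.71).

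**Figure D3:**
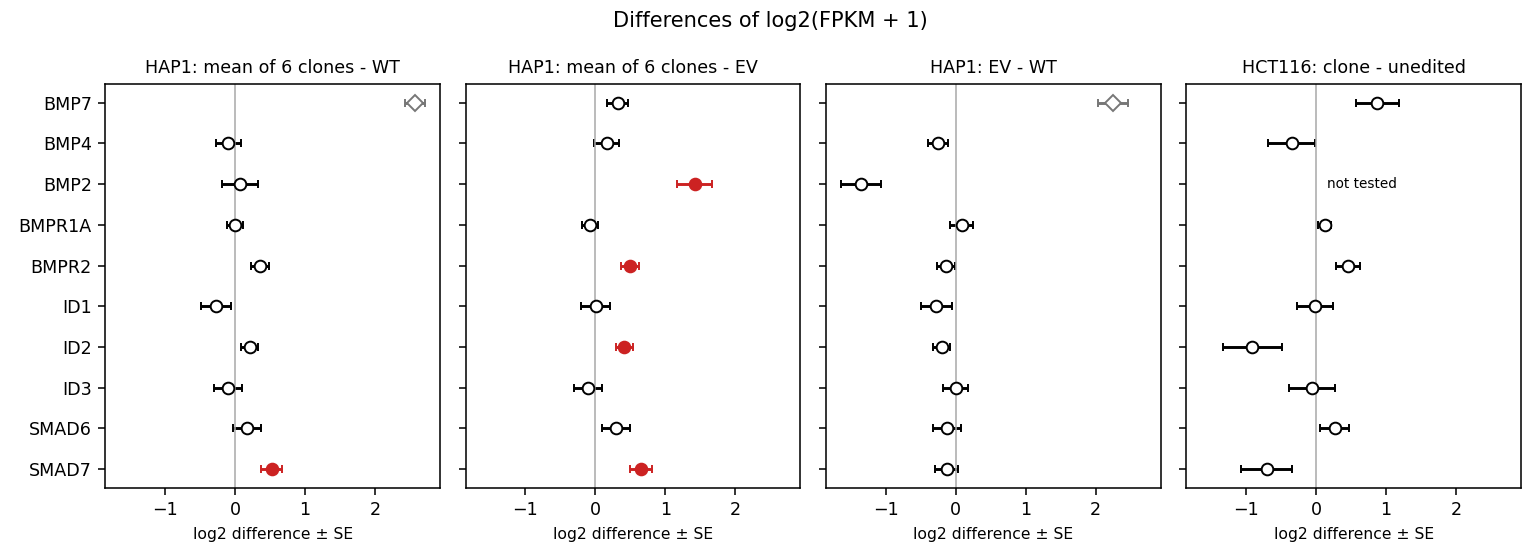
Differences of log2(FPKM + 1) with their SE for the 10 members in 4 comparisons; filled red points passed an adjusted p of 0.05 in limma, and grey diamonds are the values that chose BMP7, with no test. BMP7 stands at 2.57 and 2.25 against WT while ID1 and ID3 lie within 0.3 of 0 in the 3 HAP1 comparisons. BMP2 was too low to enter the HCT116 fit.

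Whether the targets followed BMP7 was also looked at across lines and libraries. Over the 8 HAP1 line means, ID1 was lower where BMP7 was higher (Pearson's r -0.714, exact permutation p = 0.0352; Spearman's rho -0.595, exact permutation p = 0.132). Without WT and C3, the 2 lines farthest from the median of BMP7, r was -0.632. For ID3 r was -0.463 (exact permutation p = 0.255) and rho -0.81 (exact permutation p = 0.0218), with r -0.902 without WT and C3. For ID2 r was 0.265 (exact permutation p = 0.526) and for SMAD7 0.319 (exact permutation p = 0.427). Of the 16 relations computed, none of the 10 with BMP7 had an adjusted p under 0.05, the values for ID1 and ID3 over line means being 0.113 by r for ID1 and 0.113 by rho for ID3. EV and the clones descend from WT, and the 8 means are points of one cell line. The BMP7 means of WT, EV and the clones also hold the values that chose the gene. The p-values over line means with BMP7 are therefore a description only.

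ID1, in contrast, varied together with ID3 and with ID2 from library to library within lines. After the mean of each line was taken off, ID1 and ID3 correlated over the 32 HAP1 libraries with a Pearson's r of 0.859 and a Spearman's rho of 0.864 (permutation p = 1e-05 for both, the smallest that 100000 shuffles within lines can give; adjusted p = 0.00016 over 16 relations). The Pearson's r was 0.82 without the 2 libraries farthest out, and 0.826 after the mean of each replicate number was taken off as well. The share of other gene pairs that correlate as closely was not computed. C2 shows the pattern: its libraries stood at 30.5, 17.4, 26.6 and 46.8 FPKM for ID1 and at 148, 65.6, 101 and 187 for ID3. ID1 and ID2 correlated with r 0.599 and rho 0.568 (permutation p = 0.00231 and 0.00468, adjusted 0.0185 and 0.0374), and ID2 and ID3 with r 0.423 (permutation p = 0.027, adjusted 0.113). BMP7 did not correlate with any ID gene in this way (r -0.214 for ID1, -0.134 for ID2 and -0.297 for ID3, permutation p = 0.31, 0.525 and 0.169).

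The 15 HCT116 libraries held the same pair. There, over all libraries, ID1 and ID3 correlated with r 0.95 and rho 0.886 (permutation p = 1e-05, the smallest possible, and 8e-05; adjusted 3e-05 and 0.00024 over 3 pairs), and with r 0.889 without the 2 libraries farthest out. ID1 with ID2 gave r 0.644 and rho 0.389 (permutation p = 0.0102 and 0.153), but r 0.22 without 2 libraries. ID2 with ID3 gave r 0.663 and rho 0.346 (permutation p = 0.00757 and 0.206), but r 0.294, so that both relations rest on those libraries. Unlike in HAP1, no line means were taken off and the libraries were shuffled across all groups. Differences between the HCT116 groups thus enter these values of r, rho and p. The HCT116 correlations were chosen after the HAP1 values were seen.

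**Figure D4:**
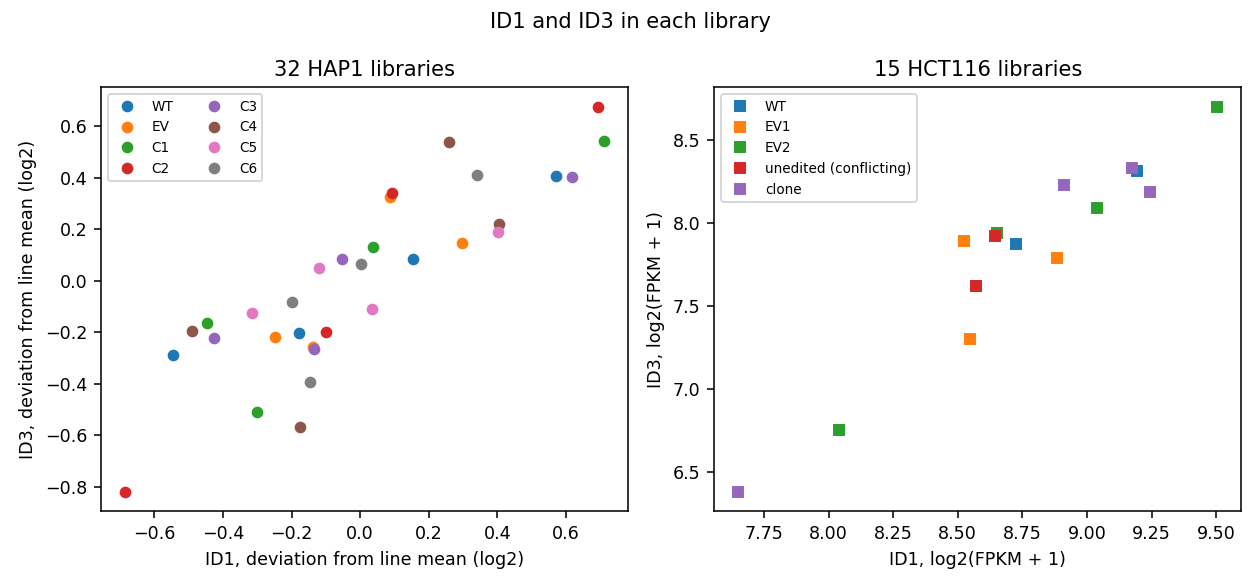
ID1 against ID3: left, deviations of log2(FPKM + 1) from the line mean in 32 HAP1 libraries, coloured by line; right, log2(FPKM + 1) in 15 HCT116 libraries, coloured by group. In both cell lines the libraries lie along a rising band (r 0.859 and 0.95), with libraries of the same line spread over its length.

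HCT116 expressed the pathway at other levels. Against the 11 unedited HCT116 libraries, HAP1 WT had less BMP4 (5.81 against 95.1 FPKM on average), ID1 (42.7 against 446) and ID2 (21.9 against 126), all without overlap, as did 15.6% of all genes tested. In HCT116 these genes were thus 16.4, 10.4 and 5.77 times as high. BMPR1A was also lower in HAP1 WT (log2 difference -0.43, SE 0.12, adjusted p = 0.0041 by limma). BMP7 stood at a mean of 1.55 FPKM in HAP1 WT and 4.22 in the HCT116 controls, which is given without a test, since its low WT level is one of the values that chose it. SMAD7 (0.98, SE 0.33, adjusted p = 0.0176 by limma) and BMPR2 (0.52, SE 0.13, adjusted p = 0.00297) were higher. Of the 8 members tested other than BMP7, 4 were called lower and 2 higher, where 24.8% of genes were called lower and 32% higher. BMP2 was between 0 and 0.0505 FPKM in all 15 HCT116 libraries. It was too low to enter limma's fit of this comparison or that of the HCT116 clone. An exact permutation test of the HCT116 clone against its controls gave a two-sided p of 0.641 for BMP2. The call of SMAD7 was lost without WT replicate 2 (adjusted p = 0.059).

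In HCT116, BMP7 was higher in the clone than in most controls, and no member passed the test. The clone libraries stood at 8.47, 8.77, 6.95 and 6.99 FPKM, and the 11 controls ranged from 1.43 to 7.71 with a median of 4.64. The highest control, EV2 replicate 4, overlapped with the clone. The difference was 0.87 (SE 0.31) with an adjusted p of 0.38 by limma, and an exact permutation test of the 1365 arrangements gave a two-sided p of 0.0227 (0.114 adjusted over 10 members). The difference was 0.87 without the libraries numbered 3 (adjusted p = 0.125 by limma) and 1.00 with only those numbered 1 and 2 (adjusted p = 0.31). Over all genes 0% were called (0 of 12960, with 1342 at an unadjusted p under 0.05), and 17 by an unmoderated test with unequal variances. BMPR2 stood at 6.07, 5.78, 3.11 and 7.95 FPKM in the clone and at 2.9 to 5.22 in the controls (difference 0.46, SE 0.17, adjusted p = 0.386 by limma). Without the library labelled clone replicate 3, the one whose NUP58 was at control level, the difference was 0.68 and was called (adjusted p = 0.0255). Without all libraries numbered 3 it was 0.69 (adjusted p = 0.0238), and with only those numbered 1 and 2 it was 0.46 (adjusted p = 0.351). ID2 (difference -0.91, SE 0.42, adjusted p = 0.47, and -0.58 without the library labelled clone replicate 3) and SMAD7 (-0.70, SE 0.36, adjusted p = 0.513) were at lower values in the clone, and ID1 (-0.01, SE 0.26) and ID3 (-0.05, SE 0.33) near 0. ID1 and ID3 turned to 0.36 and 0.38 without the libraries numbered 3.

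The control lines were not alike in these genes. EV2 replicates 1 and 2 held 1.63 and 2.26 FPKM of BMP7, 185 and 156 of BMP4, and 336 and 187 of ID2. EV1 replicates 1 and 2 held 6.42 and 4.74 of BMP7, 51.5 and 77.3 of BMP4, and 98.1 and 71.4 of ID2. From number 3 on this order changed: EV1 replicate 3 held 1.43 of BMP7, 138 of BMP4 and 143 of ID2, while EV2 replicates 3 and 4 held 5.94 and 7.71 of BMP7 and 69 and 43.2 of BMP4. With the libraries numbered 1 and 2 alone, the clone was above EV2 in BMP7 by 1.72 (SE 0.23, adjusted p = 0.0216 by limma), above EV1 by 0.56 (SE 0.23, adjusted p = 0.354) and above WT by 0.73 (SE 0.23, adjusted p = 0.428). EV2 was above EV1 in BMP4 by 1.42 (SE 0.21, adjusted p = 0.0373). No library was assigned to another line on these values.

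**Figure D5:**
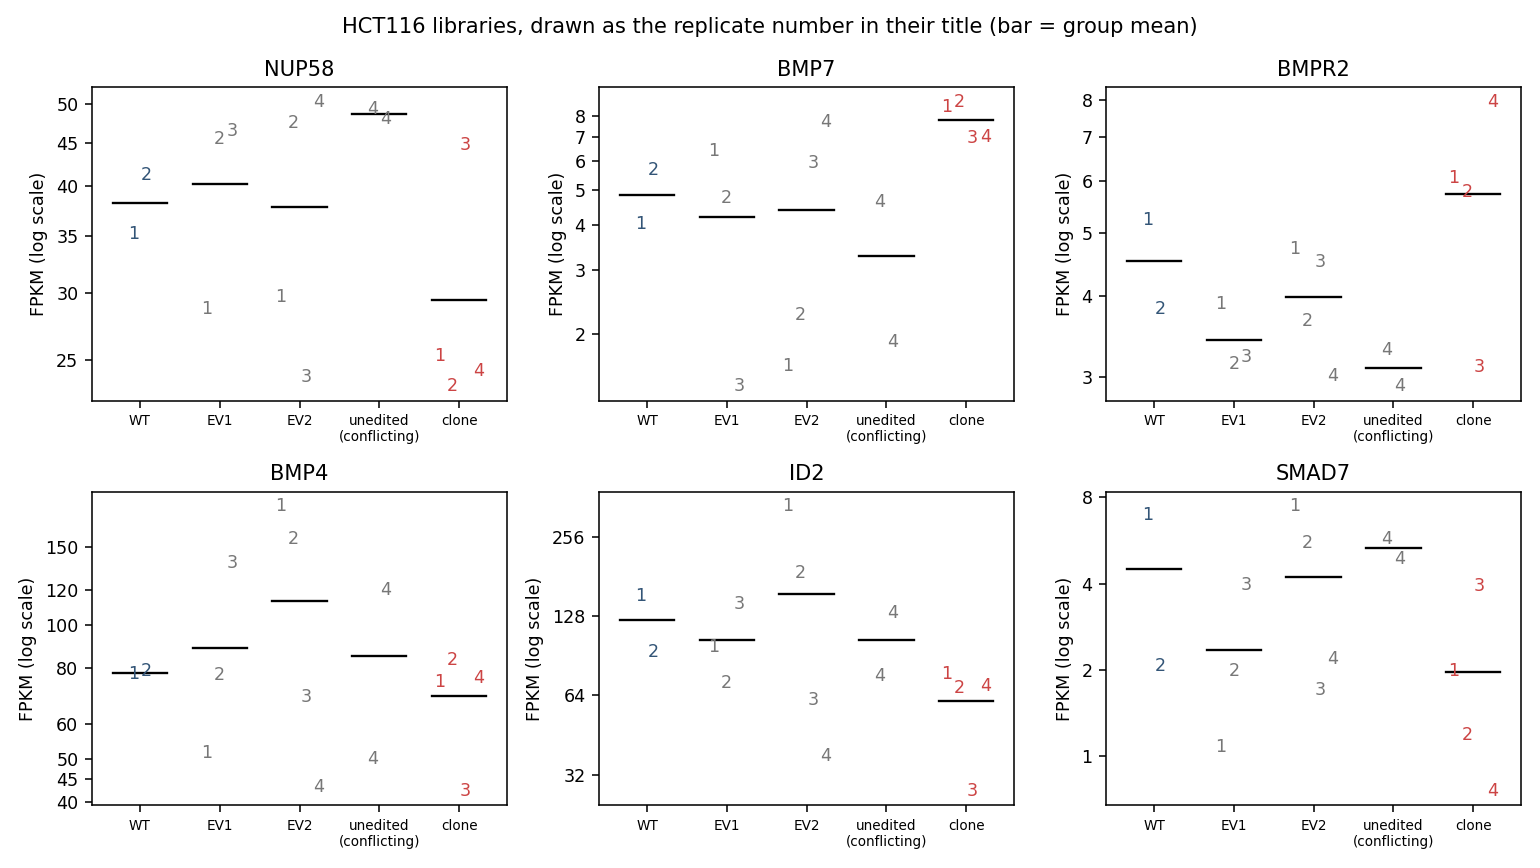
FPKM (log axes) of NUP58, BMP7, BMPR2, BMP4, ID2 and SMAD7 in the 15 HCT116 libraries; each digit is a library, written as the replicate number of its title, and bars are group means. NUP58 is 44.7 in the clone library numbered 3 and 23.3 to 25.3 in the other clone libraries, and the EV1 library numbered 3 and the EV2 libraries numbered 3 and 4 lie apart from those numbered 1 and 2 in BMP7.

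Set against each other, the mutant effects of the 2 cell lines (HAP1 clones less WT, minus HCT116 clone less controls) differed by 1.23 (SE 0.36) for SMAD7 and by 1.12 (SE 0.39) for ID2 on the log2 scale, with adjusted p of 0.0644 and 0.134 by limma. For BMPR2 the difference was -0.10 (SE 0.21, adjusted p = 0.896). None of the 9 members other than BMP7 passed this test.

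Of 59 other genes of the pathway, listed by their role, 35 were tested in HAP1. Against WT the mean of the clones was higher in 3 and lower in none, where 3.17% of all genes were higher. These were SMAD1, a receptor-activated SMAD (0.33, SE 0.08, adjusted p = 0.0116 by limma), SKI, a repressor of SMAD complexes (0.24, SE 0.07, adjusted p = 0.0424), and the transcription factor gene GATA2 (0.45, SE 0.10, adjusted p = 0.00383). Against EV it was higher in 5 and lower in none, where 4.18% of all genes were higher. Among these were the secreted antagonist NOG (1.07, SE 0.23, adjusted p = 0.00296 by limma), HEY1 (0.62, SE 0.13, adjusted p = 0.00205), GATA2 (0.54, SE 0.10, adjusted p = 0.000594) and GATA3 (0.93, SE 0.19, adjusted p = 0.00176). None of the other 11 ligands and 9 receptors, of which 2 and 6 were tested, was called in either. EV against WT held no called gene of the list, nor did the HCT116 clone against the controls (29 tested). Among the clones 8 of the 35 differed by limma's F test, SMAD1, HEY1, GATA2 and GATA3 among them, where 15.8% of all genes did.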

How the data were processed

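Total RNA of 47 libraries was sequenced as read pairs. After adaptor removal the authors used STAR with default settings and GRCh38.p13 for alignment and RSEM for gene values. The submitters' processing notes also name FastQC, and tool versions are not given in the sources used here. The deposited values are FPKM, which the authors did not normalize further between libraries. Group labels came from the sample descriptions, all 47 columns were used, and 0 pairs of libraries were identical.

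The members, the pathway list and the tests were chosen with earlier results of these data known. BMP7 was chosen on the clones against WT and EV against WT and is described there without a test. Values were analysed as log2(FPKM + 1), so that differences of low genes are understated. A gene entered a fit if its mean over the libraries of that fit was 1 FPKM or more. The moderated linear models of limma 3.58.1 (R 4.3.3) included a trend of the variance on the mean, with Benjamini-Hochberg adjustment over every gene of the fit. The fits held all 32 HAP1 libraries for the mean of the 6 clones against WT or EV and for the F test among clones, 8 libraries for EV or a single clone against WT, and 15 for the HCT116 clone against its controls and for HAP1 WT against the controls. The limma fits were tried on simulated data. Exact permutation tests served for single members and for correlations over line means. Correlations over the 32 HAP1 libraries were tested by shuffling within lines. Those over the 15 HCT116 libraries were tested by shuffling across all groups. Relative depth was read from genes under 0.15 FPKM. Gene positions came from GENCODE 44 (GRCh38). Other genes were named if they were pathway genes called in the clones against WT or EV or in HCT116, or were among the 5 with the highest correlation with BMP7; genes within 1 Mb of BMP7 were added after seeing the data. The values of 1 pathway gene are not reported here.

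Deviations from the line mean were correlated between same-numbered libraries of WT and another HAP1 line. The r was over 0.1 in every pair for 5 of 7 lines (C1 to C4 and EV). It was so in 24 of 28 pairs in all (r -0.375 to 0.747). The exceptions were C5 replicates 1 and 4 (0.0248 and -0.0332) and C6 replicates 1 and 4 (0.0849 and -0.375). The replicate numbers were therefore not taken to pair all lines, and the replicate block was run as an alternative. The other alternatives were a pseudocount of 0.1, no filter, scaling to TPM or by median ratios, no trend, an unmoderated test with unequal variances, a threshold of p under 0.01 with a fold change over 2, all HAP1 libraries in 1 fit, other sets of HCT116 libraries, and leaving out each library in turn. Those with only the HCT116 libraries numbered 1 and 2, with the means of replicate numbers removed, and with correlations over HCT116 libraries were chosen after seeing the data.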

Additional observations from a re-analysis of the deposited data

Results flagged for a closer look

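In groups of 4 libraries, 6 of 100 combinations of a group and a member held a library whose gap to the nearest of the others exceeded Dixon's critical value for 4 samples, which chance gives in about 1 of 20. Of these, 4 were the library labelled HCT116 clone replicate 3, which was lowest in BMP4 (42.4 FPKM), BMPR1A (16.7), ID2 (27.7) and ID3 (82.4) and whose NUP58 was 44.7 FPKM. The others were BMP2 in C4 replicate 2 (4.06 FPKM, against 0.812 to 1.14 in the other 3 libraries) and BMP4 in C5 replicate 2 (5.85 FPKM, against 4.74 to 4.87).

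The effect of the mutant clones differed from clone to clone for 2 members by limma's F test. BMP7 had a range of line means of 1.97 on the log2 scale (adjusted p = 4.29e-08) and BMP2 one of 2.68 (adjusted p = 2.22e-06).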

How the results depend on the processing

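The direction of every member called in a comparison of groups was kept in all settings tried, and of 1899 single values recomputed 1807 were counted as the same. For tested values this meant the same direction and side of the threshold. For values without an adjusted p it meant the same direction and a shift under a set limit. The number of called members changed as follows. For the mean of the clones against WT, 1 member was called, but 0 without a filter on low values (SMAD7 adjusted p = 0.0649), 0 with an unmoderated test with unequal variances (0.168), 0 with a threshold of p under 0.01 without adjustment together with a fold change above 2, and 2 with the replicate block, which added BMPR2 (adjusted p = 0.0171) and moved the called genes from 870 to 1659. Against EV the block added BMP7 (adjusted p = 0.0423, from 1116 to 2196 genes), and among the pairs it added BMP2 in C5 and took BMPR2 in C6 (0.103); the cause was not tested. That threshold left 1 member called against EV and 1 in EV against WT (BMP2), against 4 and 0. In HAP1 WT against HCT116 it left 3 (BMP4, ID1 and ID2), and BMPR1A, BMPR2 and SMAD7 were no longer called. BMP7 is not counted there, since its low WT level is one of the values that chose it. The HCT116 clone had 1 called member without all libraries numbered 3, where 769 genes were called in place of 0. The unmoderated test left 0 of the 3 pairs of a clone and a member. When each library was left out in turn, the counts ranged from 0 to 1 (clones against WT), 2 to 4 (against EV), 0 to 1 (HCT116 clone) and 1 to 3 (pairs).

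None of the values that changed sign had passed a test. In the clones against WT, BMP2 was -0.040 with a pseudocount of 0.1, where BMP7 was 3.13 (2.8 in EV). ID3 in EV was 0.0079 with scaling by median ratios. In HCT116, ID1 was 0.018 with the replicate block, and ID1 and ID3 were 0.36 and 0.38 without the libraries numbered 3 and 0.30 and 0.18 with those numbered 1 and 2 only, which was chosen after seeing the data. Over line means without the 2 farthest lines, r was -0.0592 for BMP7 and SMAD6, -0.0675 for BMP7 and SMAD7, and -0.169 for ID2 and ID3. Within lines, with the means of the replicate numbers removed (chosen after seeing the data), r of BMP7 was 0.0362 with ID1, 0.00776 with ID3, -0.086 with SMAD6 and -0.0907 with SMAD7. With each library left out, the ranges were -0.13 to 0.34 for BMP2, -0.13 to 0.12 for BMPR1A and -0.20 to 0.033 for ID3 (clones against WT), -0.081 to 0.10 for ID1 and -0.19 to 0.0072 for ID3 (against EV), -0.047 to 0.20 for BMPR1A, -0.11 to 0.13 for ID3 and -0.25 to 0.014 for SMAD6 (EV against WT), and -0.18 to 0.35 for ID1 and -0.24 to 0.41 for ID3 (HCT116). FPKM carry no depth, so that counting error is unknown.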
